A study of Homo sapiens with 16 samples.

Results

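Cytosolic ribosomal protein genes were taken as the protein-coding genes whose symbol is RPL or RPS followed by a number and then nothing or A, L or X, together with RPLP0, RPLP1, RPLP2, RPSA and FAU, on chromosomes 1 to 22 and X. The rule uses symbols only and gave 82 of 19974 protein-coding genes, 49 of the large subunit and 33 of the small subunit. It includes the paralogs RPL3L, RPL10L, RPL39L and RPS27L. Their chromatin was read from CUT&RUN, in which an antibody guides a nuclease to its target and the released fragments are sequenced, in LNCaP, an androgen-sensitive human prostate carcinoma line.

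The guide was a control (sgC) or targeted PRKCI (sgPRKCI), which encodes atypical protein kinase C iota. Cells with each guide were kept for 72 h in DMSO or in 10 µM enzalutamide, an antiandrogen used against prostate cancer. The 4 conditions were therefore sgC DMSO, sgPRKCI DMSO, sgC enzalutamide and sgPRKCI enzalutamide. Each had 1 library for H3K4me3, 1 for EZH2 and 1 for H3K27me3. With 1 library per antibody and condition no difference below has a replicate check and none was tested. The labels do not say whether either guide line is a clone, and peaks at promoters do not check the PRKCI genotype.

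The cytosolic ribosome is built from a large and a small subunit whose proteins are made in matched amounts by genes scattered over the genome. Most of their mRNAs begin with a C followed by a pyrimidine run, the 5′ terminal oligopyrimidine (TOP) motif, through which mTORC1 signalling controls their translation. H3K4me3 marks the nucleosomes around active promoters. EZH2 is the methyltransferase of Polycomb repressive complex PRC2, which places H3K27me3, a mark of silent genes.

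The peak lists held between 17396 and 19260 H3K4me3 peaks, between 6165 and 24517 EZH2 peaks and between 78641 and 100209 H3K27me3 peaks. Mean fragment coverage, recovered from the deposited peak values, was between 0.842 and 1.56 in the H3K4me3 libraries and between 1.13 and 1.68 in the EZH2 libraries. The luminal prostate genes KLK3, HOXB13, FOLH1, TMPRSS2 and KRT18 had an H3K4me3 peak in all 4 libraries, and KRT8 had none within 1 kb. The basal genes KRT5, KRT14 and TP63, the leukocyte genes PTPRC and CD3E, the endothelial genes PECAM1 and VWF and the fibroblast gene DCN had none, while COL1A1 had a peak in all 4. Among the EZH2 libraries, that of sgPRKCI enzalutamide differed from the rest. It held the longest EZH2 list, with a peak at 62.3% of protein-coding genes, and over the 11569 other genes with both peaks its summit heights followed the H3K4me3 heights of the same cells with r = 0.94 (log2 heights, a description across genes). In the 3 other conditions the same r was between -0.23 and -0.01.

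The promoters of these genes are shown first, since their starts are the points from which the peaks are measured. RefSeq promoter sequences (GRCh38.p14) were matched for 65 of the 82 genes, and the windows below run from 100 bases before the annotated start to the 20 bases that begin with it. They show the gene with repeated EZH2 and H3K27me3 peaks nearby (RPL38), wide and narrow H3K4me3 peaks (RPL7A, RPL41, RPL29, RPS4X), a stalk protein (RPLP0), the S6 kinase substrate RPS6, the Diamond-Blackfan anaemia gene RPS19, and the paralogs RPS27 and RPS27L. Capitals mark the pyrimidine run that starts with a C at the annotated start, and matches on either strand to CCGGAAG (bound by ETS factors such as GABP), AAGATGG (YY1), CCGCCC (SP factors) and TATAAA.
RPL38: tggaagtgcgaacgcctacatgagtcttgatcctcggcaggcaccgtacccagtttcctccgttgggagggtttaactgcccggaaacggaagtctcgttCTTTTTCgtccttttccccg
RPL7A: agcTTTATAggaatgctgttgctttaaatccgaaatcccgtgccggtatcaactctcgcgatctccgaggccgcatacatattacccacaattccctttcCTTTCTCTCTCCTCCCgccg
RPL41: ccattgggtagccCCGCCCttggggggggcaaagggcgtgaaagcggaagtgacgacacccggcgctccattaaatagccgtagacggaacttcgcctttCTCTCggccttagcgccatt
RPL29: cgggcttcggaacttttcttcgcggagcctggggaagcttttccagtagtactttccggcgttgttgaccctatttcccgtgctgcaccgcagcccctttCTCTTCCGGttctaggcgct
RPS4X: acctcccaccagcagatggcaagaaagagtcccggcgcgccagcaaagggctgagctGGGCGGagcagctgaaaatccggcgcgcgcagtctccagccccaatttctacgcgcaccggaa
RPLP0: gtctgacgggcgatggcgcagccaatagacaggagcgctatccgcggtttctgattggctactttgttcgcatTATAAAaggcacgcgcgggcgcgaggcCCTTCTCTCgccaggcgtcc
RPS6: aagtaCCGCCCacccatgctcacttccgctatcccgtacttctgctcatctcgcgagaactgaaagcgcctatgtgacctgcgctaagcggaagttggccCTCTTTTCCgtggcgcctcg
RPS19: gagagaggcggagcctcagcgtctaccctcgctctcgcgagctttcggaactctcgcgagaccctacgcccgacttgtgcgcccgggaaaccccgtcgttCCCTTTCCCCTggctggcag
RPS27: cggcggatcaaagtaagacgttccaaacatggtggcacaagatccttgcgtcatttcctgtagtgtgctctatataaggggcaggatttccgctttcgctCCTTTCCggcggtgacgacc
RPS27L: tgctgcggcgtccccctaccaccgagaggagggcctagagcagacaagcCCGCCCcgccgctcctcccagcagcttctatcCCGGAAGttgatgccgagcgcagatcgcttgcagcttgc

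The windows lie at chr17:74203578-74203697 (plus strand, RPL38), chr9:133348118-133348237 (plus, RPL7A), chr12:56116533-56116652 (plus, RPL41), chr3:51995876-51995995 (minus, RPL29), chrX:72277229-72277348 (minus, RPS4X), chr12:120201092-120201211 (minus, RPLP0), chr9:19380217-19380336 (minus, RPS6), chr19:41860155-41860274 (plus, RPS19), chr1:153990662-153990781 (plus, RPS27) and chr15:63157458-63157577 (minus, RPS27L). In RPL29 the pyrimidine run and the ETS letters overlap. RPS4X and RPS27L have no pyrimidine run at the annotated start, and the other 8 do.

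Of the 65 promoters, 43 (66.2%) had a C followed by at least 4 pyrimidines exactly at the annotated start, compared with 4.35% of the 15747 other promoters and 5.18% of the 9514 others whose gene had H3K4me3 in all 4 libraries. Such a run within 10 bases of the start was found for 56 (86.2%), compared with 33.6% of other promoters. The 9 genes without a run within 10 bases were RPL15, RPL6, RPL10L, RPS29, RPS27L, RPL13, RPL27, RPL17 and RPS4X. At 3 ribosomal protein genes, RPL6 among them, the start used here was not an end of the annotated gene. The missing run of RPL6 therefore describes a point inside the gene. In the windows from 250 bases before to 50 bases after the start, CCGGAAG was found in 22 (33.8%) of the 65, against 21.2% of other promoters with H3K4me3 in all 4 libraries. AAGATGG was found in 9 (13.8% against 7.96%) and TATAAA in 6 (9.23% against 4.55%). CCGCCC was found in 37, or 56.9%, against 74.8% of the others with H3K4me3. The NRF1 motif was found in 1 (1.54% against 3.32%). Of the 63 ribosomal protein promoters whose gene had H3K4me3 in all 4 libraries, 5 (7.94%) held TATAAA and 36 (57.1%) CCGCCC. Over all 15747 other promoters the shares were 14.1% for CCGGAAG, 6.37% for AAGATGG, 9.64% for TATAAA, 58.5% for CCGCCC and 2.06% for NRF1. Ribosomal protein promoters were thus close to all other promoters in TATAAA and CCGCCC. Median GC content was 59.3% in the ribosomal protein promoters and 66.3% in the others with H3K4me3. These matches describe letters in the reference and not binding.

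H3K4me3 was present at nearly all of these genes. A peak lay within 1 kb of the start (of either annotated end for the 17 genes with no promoter entry) at 79 of 82 genes in sgC DMSO, against 58.9% of all protein-coding genes. It was found at 80 genes in each of the other libraries, against 60.6% (sgPRKCI DMSO), 60.4% and 61.0% (sgC and sgPRKCI on enzalutamide). The genes without a peak in any library were RPL10L and RPL39L, paralogs known for their expression in testis. The paralog RPL3L was counted only through a peak at its lower-coordinate end, shared with MSRB1. RPL6 lacked a peak in sgC DMSO only.

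The enrichment of these peaks lay in the upper part of the range of all genes with a peak. Median fold enrichment at the summit over the local background, the authors' value for each peak, was 37.8 (sgC) and 42.4 (sgPRKCI) in DMSO and 54.8 and 59.1 on enzalutamide. The medians of other genes were 29.4, 35.0, 36.6 and 42.6 in the same order. Ranked within each list, the median ribosomal protein gene stood at the 69.1st, 65.5th, 77.7th and 73.1st percentile. Of the genes with a peak, 66 of 79, 59 of 80, 71 of 80 and 66 of 80 were above the 50th percentile, and 46 were above it in all 4 libraries. The highest median percentiles belonged to RPS28 (97.5), RPS21 (95.0), RPS29 (94.2) and RPL32 (93.1). The lowest belonged to RPL6 (2.31), RPS9 (8.49), RPS18 (27.1) and RPL41 (41.8). These ranks were only loosely alike between libraries, with Spearman's rho between 0.338 and 0.46. By summit height RPL6 (3.0), RPS9 (4.5) and RPS18 (13.4) were also low, but RPL41 had a median percentile of 75.5. RPS28 (90.9), RPS21 (95.2) and RPS29 (95.2) were high by height too, and RPL32 stood at 82.0.

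The peaks were also wider than those of most genes. In DMSO their median width was 2956 bp with sgC and 3089 bp with sgPRKCI, and on enzalutamide 3278.5 and 3084.5 bp, compared with 2087, 2132, 2245.5 and 2133 bp at other genes. Large subunit genes had medians of 3169, 3455, 3418 and 3481 bp, and small subunit genes 2738, 2833, 3003 and 2711 bp. The median was lower for small subunit genes in each library, with ranges that overlapped. The 77 mitochondrial ribosomal protein genes, which serve the separate ribosome of that organelle, had median widths of 2118.5, 2189.5, 2308 and 2185.5 bp, close to those of other genes. Their median fold enrichments were 36.8, 40.6, 47.4 and 54.1. The 69 genes whose symbol begins with EIF or EEF and then a number lay between, at 2688, 2659.5, 2827.5 and 2732.5 bp. That symbol rule does not limit the list to initiation and elongation factors.

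**Figure D1:**
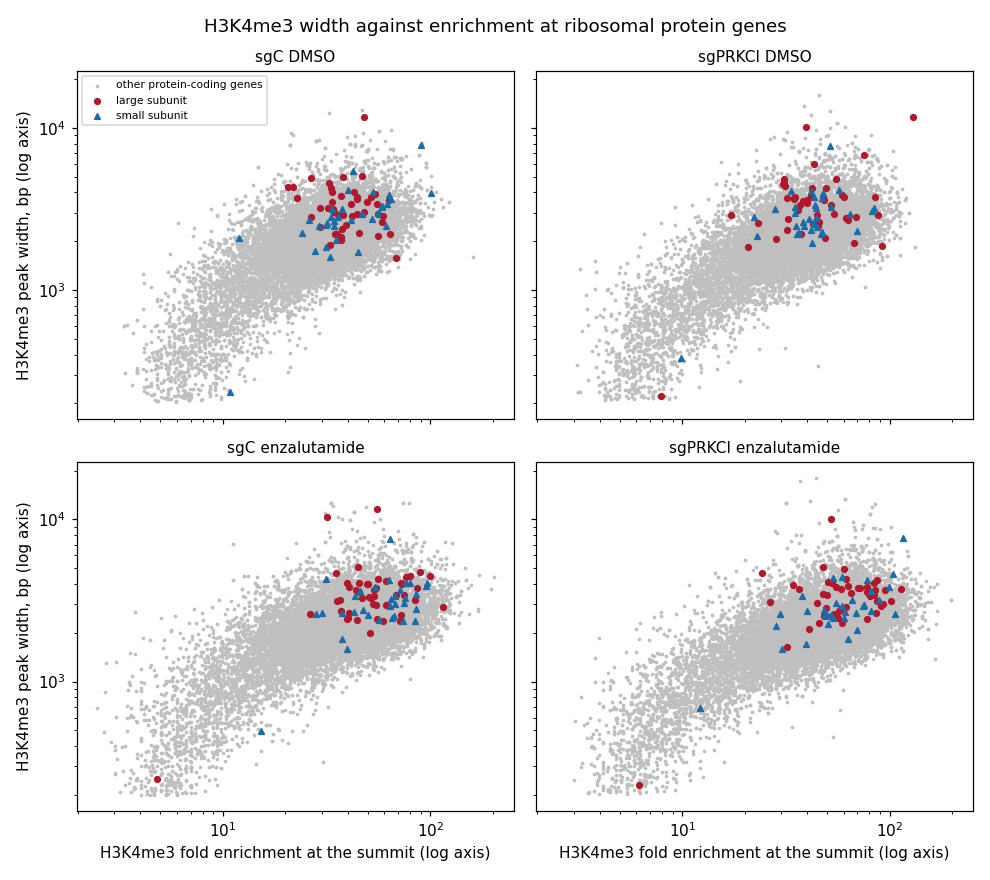
H3K4me3 peak width in bp against fold enrichment at the summit, both on log axes, in 1 library per panel; each point is a protein-coding gene, with ribosomal protein genes coloured by subunit. Ribosomal protein genes lie mostly in the upper right of the cloud, with medians of 2956 bp and 37.8-fold in sgC DMSO, and RPS9 and RPL6 lie among the small, weak peaks.

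Width rises with enrichment, so each ribosomal protein gene was set beside all other protein-coding genes of the same library whose fold enrichment lay within 10% of its own. There were a median of 1595, 1728, 1433 and 1452 such genes per ribosomal protein gene in the 4 libraries, and at the fewest 24, 10, 115 and 188. The median ribosomal protein gene was wider than 73.5%, 79.9%, 75.5% and 75.1% of its equals, in the same order of libraries. It was wider than their median at 62 of 79, 65 of 80, 62 of 80 and 65 of 80 genes. There were 52 genes wider than the median of their equals in all 4 libraries and 7 narrower in all 4. Between 38 and 44 genes per library stood above the 75th percentile of their equals and between 4 and 6 below the 25th. The widest among their equals were RPL23A (median percentile 99.7), RPS2 (99.5) and RPL41 (98.7), and the narrowest RPS9 (3.11), RPL6 (3.72) and RPL29 (13.1). The equals of RPL41 were chosen by its fold enrichment, which ranked below its height (median height percentile 75.5).

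A peak may span the start of a second gene. The highest peak was shared with the start of another protein-coding gene at 20 ribosomal protein genes in all 4 libraries, and at 57 in none. The 20 shared peaks had median widths of 3403.5, 3639, 3972.5 and 3699 bp and stood at the 82.2nd, 86.8th, 86.5th and 85.6th percentile of their equals. The 57 unshared peaks had median widths of 2825, 2898, 3052 and 2935 bp and stood at the 68.1st, 66.1st, 69.0th and 66.8th percentile of equals that could themselves share a peak. With genes and equals both limited, library by library, to those whose highest peak was assigned to no other gene, the median percentiles were 76.6, 82.8, 79.1 and 74.2. This criterion counts read-through genes and any gene within 1 kb of the peak, so its genes need not be the 57 above.

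The additional width lay mostly on the side of the gene. At the 62 genes whose annotated start lay inside the peak, the peak reached 1038, 1030, 1095 and 1058 bp upstream of the start (medians in the 4 libraries), compared with 873, 927, 995.5 and 961 bp at equals. Downstream it reached 1910, 1876, 2033 and 1966 bp, compared with 1403, 1383, 1493 and 1438 bp. The downstream reach stood at the 79.2nd, 82.5th, 80.8th and 82.5th percentile of equals, and the upstream reach at the 59.5th, 57.5th, 56.2nd and 55.6th. Between 56 and 59 of the 62 genes reached further downstream than the median of their equals, and between 36 and 38 reached further upstream. At 1.5 kb into the gene (1500 bp) the peak still covered 80.7%, 87.1%, 90.3% and 82.3% of the ribosomal protein genes and 43.7%, 41.0%, 51.7% and 44.2% of equals. The summit lay 291, 283.5, 308 and 284.5 bp from the start in the 4 libraries, against 197, 187, 231 and 213 bp at other genes.

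**Figure D2:**
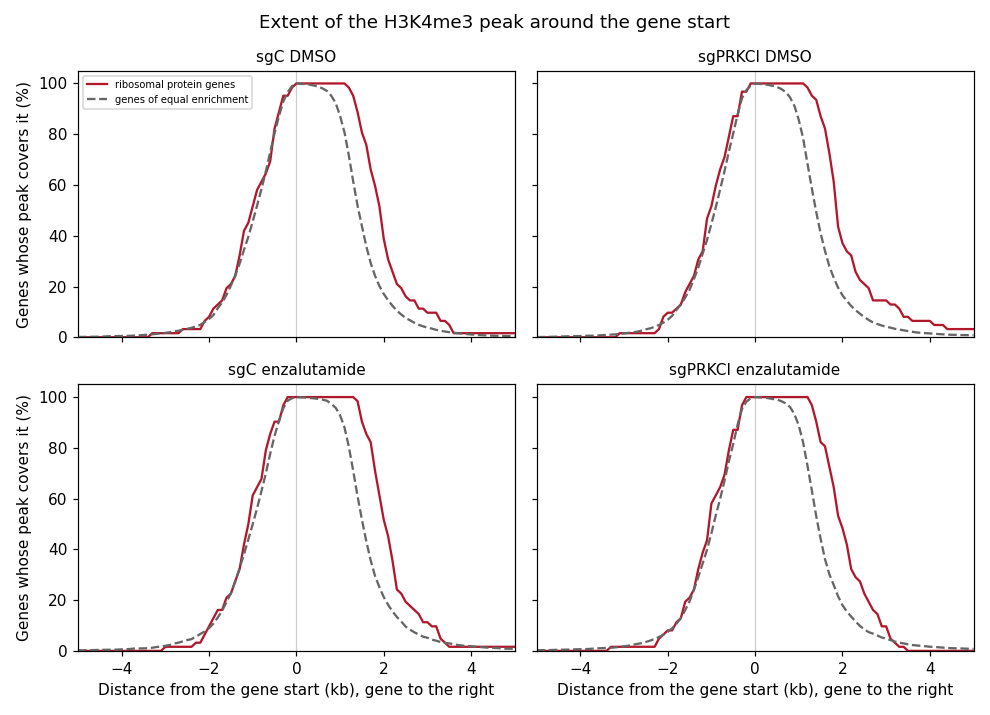
Percentage of genes whose H3K4me3 peak covers each distance from the annotated start, in kb with the gene to the right, for 62 ribosomal protein genes (solid) and genes of equal enrichment (dashed, each gene's equals weighted to 1). The curves run close together upstream and separate downstream, at 80.7% and 43.7% at 1.5 kb in sgC DMSO.

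Ribosomal protein genes are short, with a median length of 5013 bp against 24341.5 bp for other genes. The peak covered a median of 40.2%, 39.5%, 44.2% and 43.1% of the gene in the 4 libraries, compared with 4.95%, 4.75%, 5.62% and 5.12% at equals. It covered the whole gene at 10, 10, 11 and 10 ribosomal protein genes, and at between 1.39% and 1.54% of other genes with a peak. Among equals no longer than 10 kb, a setting chosen after the data were seen, the median width percentile was 73.4, 77.7, 72.8 and 70.3.

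The widest peaks were those of RPL7A, RPL23A, RPS2 and RPL26, all with partners or neighbours under the same peak except RPL26. RPL7A, a large subunit protein in the surfeit gene cluster, had a peak of 4225 bp in sgPRKCI enzalutamide and of 11706, 11615 and 11674 bp in the other libraries. These 3 long peaks ran from the start of MED22 over SURF1 to SURF2. In sgPRKCI enzalutamide the same stretch held 4 separate peaks, and the highest was the one over RPL7A (chr9:133346395-133350619). RPL23A had a peak of 4328 bp in sgC DMSO, beside a second one of 5755 bp, and single peaks of 10147, 10374 and 10082 bp in the other libraries that ran on over TLCD1 and NEK8. RPS2 was steady at 7897, 7714, 7568 and 7666 bp, with the start of NDUFB10, a complex I subunit gene, under the same peak. RPL26 had 5061, 5959, 5096 and 5080 bp.

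The narrowest peaks were those of RPL6, RPS9, RPS4X and RPL29. At RPL6 the table start lies inside the annotated gene (chr12:112405181-112418835), where peaks of 222, 252 and 229 bp were found in 3 libraries. RPL6 is on the minus strand. A strong peak lay between 1054 and 3904 bp downstream of the table start in every library (in sgC DMSO chr12:112408179-112410032, 61.0-fold). Another lay upstream, over both the lower-coordinate end of PTPN11 (chr12:112418947) and the higher-coordinate annotated end of RPL6. The latter is the 5′ end of RPL6 on this strand. In sgC DMSO this upstream peak was 71.2-fold and lay 6411 to 8718 bp before the table start. The low values of RPL6 therefore describe the table start and not these peaks. At RPS9 the start at chr19:54200858 lay in a gap between peaks of 6.52-fold and 10.9-fold in sgC DMSO, and the highest peak was 235, 381, 495 and 691 bp wide in the 4 libraries. RPS4X, the X-linked copy of a small subunit gene, had 1598, 1949, 1591 and 1710 bp. RPL29 had 1574, 1878, 1984 and 1631 bp with fold enrichments of 68.7, 91.5, 51.0 and 32.1, and its height stood at the 85.7th, 86.7th, 89.0th and 89.1st percentile of the 4 libraries.

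**Figure D3:**
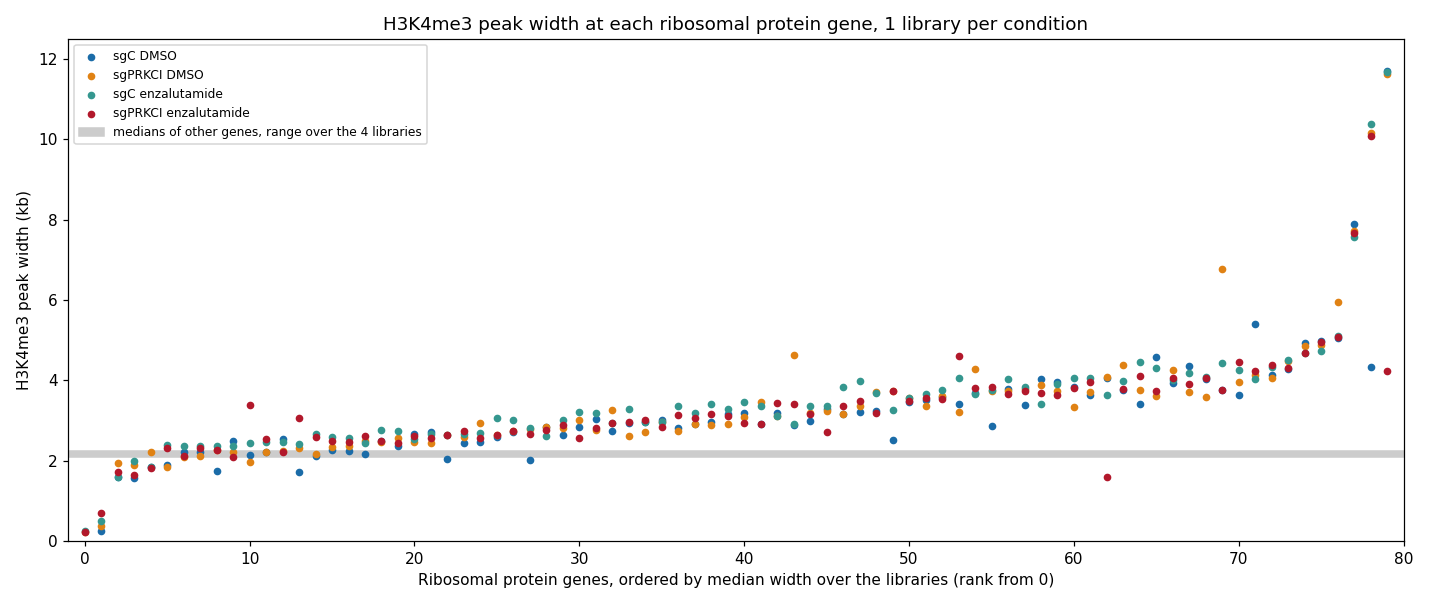
H3K4me3 peak width in kb at the 80 ribosomal protein genes with a peak, ordered by their median, with 1 point per library coloured by condition; the grey band spans the medians of other genes, 2087 to 2245.5 bp. Most genes lie above the band in all libraries, and RPL23A and RPL7A, the rightmost pair with RPL7A last, each have 1 library far from the other 3.

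The stalk proteins RPLP0, RPLP1 and RPLP2 form the lateral protuberance that recruits the translational GTPases. RPLP0 had peaks of 3672, 4287, 3654 and 3810 bp and RPLP2 of 3930, 4253, 4002 and 4044 bp, whereas RPLP1 had 2445, 2594, 2661 and 2739 bp. Their median percentiles among equals were 92.1, 92.8 and 64.3 for RPLP0, RPLP2 and RPLP1.

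RPL5 and RPL11 bind 5S rRNA and, outside the ribosome, the p53 regulator MDM2. RPL5 had peaks of 2952, 2898, 3420 and 3161 bp at fold enrichments of 44.4, 88.0, 68.2 and 102. RPL11 had 2201, 2078, 2373 and 2106 bp at 34.8, 28.5, 71.2 and 40.8. RPL11 was thus close to the width of other genes in every library, at a median percentile of 44.7 among equals, and RPL5 stood at 66.8.

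RPS6, the substrate of the S6 kinases, had peaks of 3154, 3168, 3839 and 3370 bp and a median percentile of 89.4 among equals. Its fold enrichments of 33.6, 28.0, 54.3 and 37.7 stood at the 59.6th, 34.3rd, 77.3rd and 41.9th percentile of all genes with a peak in the 4 libraries. RPS3, which lines the mRNA entry channel, had 2024, 2798, 2817 and 2669 bp. RPSA, also known as the laminin receptor precursor, had 2824, 2833, 2606 and 2754 bp. FAU, which encodes a ubiquitin-like protein fused to a small subunit protein, had 2991, 3188, 3363 and 3165 bp in a peak shared with MRPL49, and the peak covered the whole gene.

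RPS19 and RPS26 are genes mutated in Diamond-Blackfan anaemia. RPS26 had peaks of 3287, 3245, 3358 and 2711 bp at fold enrichments of 58.3, 52.0, 67.6 and 81.7. RPS19 had 2525, 2239, 2459 and 2202 bp at 31.5, 36.7, 65.5 and 28.3. RPS19 was the narrower in every library.

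The paralog pairs differed in whether the copy was marked. RPL3 had peaks of 4272, 4476, 4498 and 4300 bp. RPL3L, its copy in striated muscle, had a peak at its lower-coordinate end only (in sgC DMSO chr16:1941958-1944177), shared with MSRB1, which covered between 1.84% and 3.49% of RPL3L. RPL10 had 3152, 2902, 3281 and 3102 bp and RPL39 had 3496, 3361, 3659 and 3570 bp, and their paralogs RPL10L and RPL39L had none. RPS27 had 1847, 2206, 1840 and 1823 bp and RPS27L, a p53 target, 2250, 2352, 2569 and 2468 bp. The X-linked RPL36A had 1901, 1849, 2390 and 2305 bp in a peak shared with BTK. The 4 paralogs outside the rule, RPL22L1, RPL26L1, RPL36AL and RPL7L1, had peaks in all 4 libraries with median widths of 2855.5, 3097, 2956.5 and 2724 bp.

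EZH2 peaks were rare at ribosomal protein genes in 3 of the 4 conditions. An EZH2 peak within 1 kb was called at 2 of 82 genes in sgC DMSO, against 18.0% of all genes, at 1 in sgPRKCI DMSO, against 7.55%, and at 1 in sgC enzalutamide, against 10.0%. In sgPRKCI enzalutamide, whose EZH2 library followed H3K4me3 as described above, it was called at 78, against 62.3% of all genes. Whether that library holds fragments of another antibody or another library was not tested. Among ribosomal protein genes with H3K4me3 these were 2.53%, 1.25%, 1.25% and 97.5%. Among genes of equal H3K4me3 enrichment the shares were 20.4%, 5.29%, 4.11% and 99.0%, which would give 16.1, 4.23, 3.29 and 79.2 ribosomal protein genes. The share was below that of equals in the sgC DMSO, sgPRKCI DMSO and sgC enzalutamide libraries, by 2 or 3 genes in the latter pair, and close to it in sgPRKCI enzalutamide.

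Mitochondrial ribosomal protein genes had EZH2 at 6, 1, 1 and 76 of 77 genes and the EIF and EEF genes at 7, 1, 1 and 65 of 69. Their counts outside sgC DMSO were thus like those of the cytosolic genes.

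The EZH2 peaks outside sgPRKCI enzalutamide belonged to RPL38 and RPL7. RPL38, known in mice for the translation of Hox mRNAs, had an EZH2 peak in all 4 libraries. In sgC DMSO it lay at chr17:74203160-74203519 (6.56-fold), and a second, stronger one at chr17:74201081-74202462 (9.17-fold) ended 1216 bp before the start, outside the 1 kb window. In sgPRKCI DMSO it lay at chr17:74203134-74203453 (5.20-fold) and in sgC enzalutamide at chr17:74201037-74203018 (9.12-fold), which ended 660 bp before the start. In sgPRKCI enzalutamide it lay over the start at chr17:74203333-74204985 (31.1-fold). H3K4me3 at RPL38 ran from 489 bp before to 1717 bp after the start in sgC DMSO, so the EZH2 peaks within 1 kb in the DMSO libraries lay at its upstream edge. RPL7 had an EZH2 peak in sgC DMSO at chr8:73294548-73295408 (8.08-fold), beyond its annotated end at 73294466 and over the start of the neighbouring retinol dehydrogenase gene RDH10 at 73294602.

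In sgPRKCI enzalutamide the EZH2 peaks of ribosomal protein genes were set beside their H3K4me3 peaks. Over the 78 genes with both peaks the median log2 ratio of EZH2 height to H3K4me3 height, each over its library's mean coverage, was -0.99 with an SD of 0.27 across genes, and over 11569 other genes it was -0.98 with an SD of 0.33. Summits lay a median of 87 bp apart (65 bp at other genes) and the EZH2 peak was 0.706 times as wide as the H3K4me3 peak (0.713 at other genes). The log2 heights followed each other with r = 0.85 across the 78 genes and r = 0.94 across the other genes, all of which share both libraries. In sgC DMSO the 2 genes with both peaks had a median log2 ratio of -2.98. The part of this resemblance in the 78 calls was not tested.

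The genes with the highest −log10 q of the EZH2 peak in sgPRKCI enzalutamide included RPS2 (304.2, 62.5-fold), RPL8 (282.1, 43.6-fold) and RPL7A (275.4, 45.7-fold). RPL6 and RPS9 were the genes with H3K4me3 and without EZH2 within 1 kb. At RPL6 the strong H3K4me3 peaks further away did carry EZH2 peaks of 22.4-fold and 31.9-fold.

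**Figure D4:**
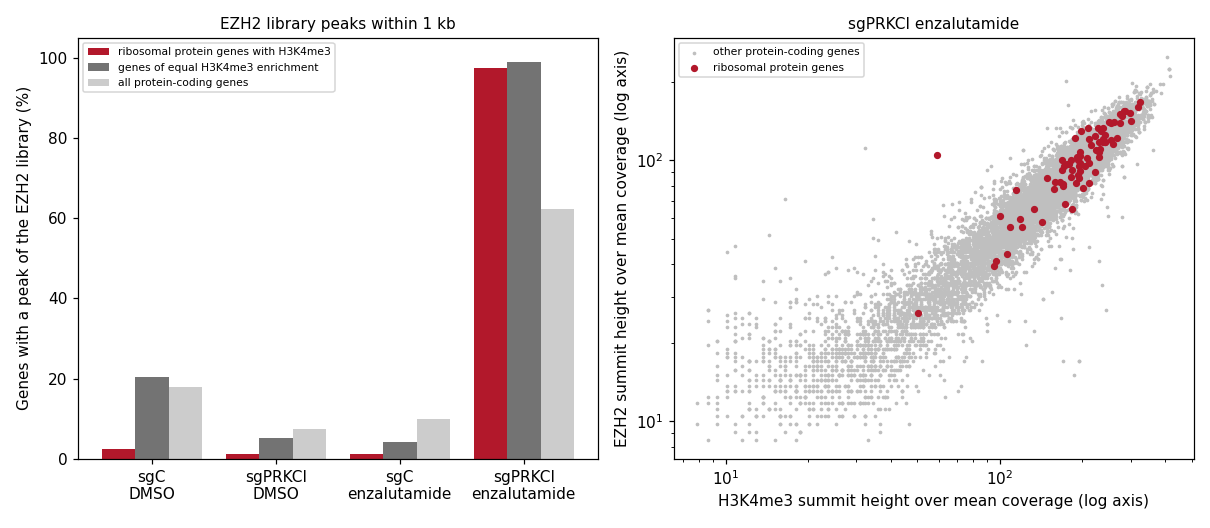
Left, percentage of genes with a peak of the EZH2 library within 1 kb, for ribosomal protein genes with H3K4me3, their equals in H3K4me3 enrichment and all protein-coding genes; right, EZH2 against H3K4me3 summit height over mean coverage in sgPRKCI enzalutamide, both on log axes, with 1 point per gene. The ribosomal protein bars are at 2.53%, 1.25%, 1.25% and 97.5%, and nearly all red points follow the cloud of other genes.

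The gains and losses between conditions followed from these calls. Gained means a peak within 1 kb and none within 5 kb in the reference library. With the guide in DMSO, 0 ribosomal protein genes gained EZH2 and 1 lost it, against 0.661% and 10.8% of all genes. With enzalutamide in sgC, 0 gained and 1 lost it, against 1.47% and 9.48%. The lost gene was RPL7 in both. With the guide on enzalutamide 77 gained it and 0 lost it, against 53.4% and 1.27%, and with enzalutamide in sgPRKCI 77 gained it and 0 lost it, against 54.7% and 0.305%. Both of the latter rest on the sgPRKCI enzalutamide library. With the lists cut to the same number of peaks, 6165, it gave 68 calls, against 32.6% of all genes.

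H3K27me3 was nearly absent. A peak within 1 kb was called at 1 ribosomal protein gene in sgC DMSO, against 14.3% of all genes, at 0 in sgPRKCI DMSO (15.2%), at 0 in sgC enzalutamide (15.4%) and at 1 in sgPRKCI enzalutamide (13.6%). The gene was RPL38 in both cases. Within 5 kb the counts were 3, 2, 2 and 2, against between 19.99% and 22.2% of all genes. At RPL38 an H3K27me3 domain lay upstream in all 4 libraries, at chr17:74199745-74202809, chr17:74199827-74202567, chr17:74199862-74202549 and chr17:74200632-74202912, and ended between 766 and 1129 bp before the start. The distance of 1 kb separated the called libraries from the others. Among equals in H3K4me3 enrichment 1.12%, 2.20%, 1.60% and 1.65% carried H3K27me3, so a count of 0 or 1 was close to the 0.888, 1.76, 1.28 and 1.32 genes these shares give. No ribosomal protein gene gained or lost H3K27me3 in any of the 4 comparisons. Of all genes, 1.25% gained it and 0.751% lost it with the guide in DMSO, 0.391% and 1.34% with the guide on enzalutamide, 1.07% and 0.375% with enzalutamide in sgC, and 0.386% and 1.17% with enzalutamide in sgPRKCI.

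H3K4me3 heights moved little between conditions. Heights were recovered from the deposited fold enrichments and −log10 p, divided by the library's mean coverage, and centred on the median of all genes with a peak in both libraries, which had shifted by 0.07, 0.09, 0.28 and 0.31 (log2) in the 4 comparisons below. The median log2 change was -0.10 with the guide in DMSO (SD 0.16 across 79 genes, 22 above 0) and -0.14 with the guide on enzalutamide (SD 0.26 across 80 genes, 11 above 0). It was 0.14 with enzalutamide in sgC (SD 0.16 across 79 genes, 66 above 0) and 0.11 with enzalutamide in sgPRKCI (SD 0.27 across 80 genes, 54 above 0). The SD across other genes was between 0.23 and 0.26. These comparisons share libraries, and each median rests on 1 library a side.

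No ribosomal protein gene was over 1.5-fold higher in any comparison, against 1.64%, 2.11%, 0.668% and 0.677% of all genes. Over 1.5-fold lower were 0, 1, 0 and 1, against 1.17%, 0.655%, 3.25% and 2.72%. At 3 genes the highest peaks did not overlap across the libraries, so that different peaks were compared. Among the 77 genes whose highest peaks did overlap, 0 were over 1.5-fold lower in any comparison.

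The changes named next were within 1.5-fold. With the guide in DMSO the lowest included RPS9 (-0.46) and RPL28 (-0.34), and the highest RPS13 (0.36), RPL8 (0.36) and RPL17 (0.29). RPL8 was measured at different ends in the 2 libraries, and its change was -0.04 at the same peak. RPS9 was also measured at different peaks in these 2 libraries. With the guide on enzalutamide RPS7 (-0.43) and RPS12 (-0.40) were among the lowest, and RPS27L (0.32), RPL14 (0.19) and RPSA (0.12) were highest. With enzalutamide in sgC the lowest were RPS29 (-0.30), RPS9 (-0.17, again at different peaks) and RPS21 (-0.15), and the highest RPL37 (0.54), RPL30 (0.46) and RPL24 (0.43). With enzalutamide in sgPRKCI RPL10 and RPL6 (both -0.23) were among the lowest, and RPL37A (0.39), RPL14 (0.35) and RPS6 (0.34) were highest. Over the genes whose highest peaks overlapped across libraries, the medians were -0.10, -0.14, 0.15 and 0.11.

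**Figure D5:**
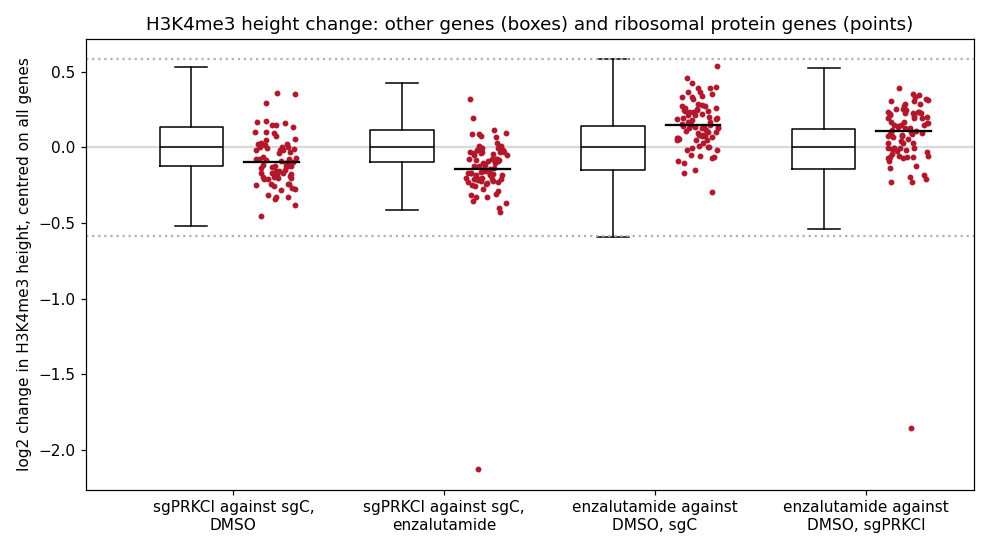
Log2 change in H3K4me3 summit height, centred on all genes, in the 4 comparisons; boxes give the quartiles of other genes with whiskers at 1.5 times the box length, points are ribosomal protein genes with a bar at their median, and dotted lines mark 1.5-fold. The medians are -0.10, -0.14, 0.14 and 0.11, and most points lie within the dotted lines.

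Widths changed by a median log2 of 0.01 with the guide in DMSO, -0.06 with the guide on enzalutamide, 0.12 with enzalutamide in sgC and 0.00 with enzalutamide in sgPRKCI. The medians of other genes were 0.05, -0.05, 0.11 and 0.01. Over 1.5-fold wider were 4, 0, 2 and 2 ribosomal protein genes, against 5.36%, 2.01%, 6.27% and 2.79% of all genes. Over 1.5-fold narrower were 0, 2, 0 and 3, against 0.925%, 1.59%, 0.736% and 1.84%. The largest were RPL23A (1.23 with the guide in DMSO, 1.26 with enzalutamide in sgC), whose 2 peaks in sgC DMSO were 1 peak elsewhere, and RPL7A (-1.47 with the guide on enzalutamide, -1.46 with enzalutamide in sgPRKCI), whose long peak was split in sgPRKCI enzalutamide. RPL13 (0.85 and -0.85) and RPL32 (0.69) were wider in sgPRKCI DMSO, where the RPL13 peak ran on to 5691 bp past the start. In the other libraries the same stretch past RPL13 was called as separate peaks. These ended 5765 bp (sgC DMSO), 5710 bp (sgC enzalutamide) and 5700 bp (sgPRKCI enzalutamide) past the start.

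Ranks by height or width were more alike between libraries than ranks by fold enrichment. Across the 79 genes with a peak in all 4 libraries, Spearman's rho between pairs of libraries was between 0.859 and 0.929 for height, between 0.831 and 0.933 for width and between 0.338 and 0.46 for fold enrichment. Pearson's r was between 0.88 and 0.96 for log2 height and between 0.81 and 0.95 for log2 width. Fold enrichment divides the height by the local background. The pairs share the genes and their starts, and these values are a description across genes.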

How the data were processed

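The submitters' processing notes name the build GRCh38 and the tools FastQC, Trimmomatic, SAMtools, Bowtie2 and MACS2, without versions. Per the files' layout, the authors deposited narrow peaks for H3K4me3 and EZH2 and broad peaks for H3K27me3, with 1 list per library. The authors gave every peak a fold enrichment, which is a ratio over the background nearby. The deposited −log10 p and −log10 q follow it. The deposited score is 10 times the −log10 q, and the last column of the narrow lists is the authors' summit offset in bp. The 4 IgG libraries are not analysed here. Every list has a lower limit, a −log10 q of 4.00 to 4.05 in narrow and 1.00 to 1.02 in broad lists, so a missing peak means none above it. Rows on other contigs, between 2.62% and 6.65% of a list, were left out.

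Summit fragments and local background were solved from fold enrichment and −log10 p to within 0.002, for 100.0% of peaks in 7 narrow lists. The EZH2 list of sgPRKCI enzalutamide was solved for 99.7% with its pileup scaled by 0.89. The lowest background gave mean coverage. Read totals were not given in the sources used, and for the broad H3K27me3 lists depth is unknown. The solver was checked on simulated peaks.

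The peak of highest fold enrichment within 1 kb of the start was used. Starts came from RefSeq promoters for 15812 genes, 65 of them ribosomal protein genes, and other genes were placed by either end. Members and lists were chosen with earlier results of these data known. Genes were named by role and by extreme value: the 4 widest, narrowest, highest and lowest, the 3 extremes among equals and per comparison, and every gene with EZH2 or H3K27me3 outside the common case or without H3K4me3. Some genes that these rules name are not reported here. Others, such as RPL13 and RPL32, were named after their values were seen. Equals are not random draws. Python 3.11.15, numpy 2.4.6, pandas 2.3.3, scipy 1.17.1 and matplotlib 3.10.9 were used.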

Additional observations from a re-analysis of the deposited data

Results flagged for a closer look

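The net change in EZH2 calls at ribosomal protein genes went opposite ways between the guides and between the treatments. The downward direction rests on 1 gene in both cases, RPL7. Its EZH2 peak in sgC DMSO lay beyond its annotated end and over the start of RDH10. On enzalutamide the net change was a loss of 1 gene in sgC and a gain of 77 in sgPRKCI. Over all genes, 1.47% gained and 9.48% lost a call in sgC, and 54.7% and 0.305% in sgPRKCI. With the PRKCI guide it was a loss of 1 gene in DMSO and a gain of 77 on enzalutamide. Over all genes, 0.661% gained and 10.8% lost a call in DMSO, and 53.4% and 1.27% on enzalutamide. With 1 library per condition neither difference was tested, and both gains rest on the sgPRKCI enzalutamide library, whose EZH2 heights followed H3K4me3 with r = 0.94 over other genes.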

How the results depend on the processing

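No paired analysis was possible because each condition had 1 library per antibody and no comparison came from a test. Of 165 alternative values for 41 results, 150 stayed within the limits set for them, 15 moved and 0 reversed. The limits were the binomial interval of the median over genes, or 1.5 times the count. For the EZH2 share of equals they were an exact binomial interval of the share. These intervals reflect the number and spread of the same genes and are wide, so staying inside them is a loose description and not a test. The width percentile among equals stayed between 70.3 and 84.8 over all alternatives. EZH2 calls in sgPRKCI DMSO went to 0 at a −log10 q of at least 10, and in sgC enzalutamide to 0 within 500 bp. H3K27me3 calls were 0 in sgC DMSO and 0 in sgPRKCI enzalutamide both within 500 bp and with at least 50% of the window covered. Within 2 kb they were 2 in sgC DMSO, 1 in sgPRKCI DMSO and 2 in sgC enzalutamide, where taking either end gave 1. Without centring, the median log2 height change was -0.03 and -0.05 with the guide (DMSO, enzalutamide) and 0.43 and 0.42 with enzalutamide (sgC, sgPRKCI), and by fold enrichment the last was 0.18. The causes were not tested, beyond the shift of all genes that centring removes. The limits to genes of 10 kb, to unshared peaks on both sides, to genes with a promoter entry and to overlapping peaks, the merged peaks for the percentile and width change, the height percentile and the equal peak numbers for gains were chosen after seeing the data.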
